A study of Homo sapiens with 6 samples.

Results

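The genes described here encode the machinery that begins transcription by RNA polymerases II and III. They are 110 of the 61852 genes in the deposited table: 30 Mediator genes, 15 genes of RNA polymerase II (Pol II), 10 genes of RNA polymerase III (Pol III), 37 TBP-associated factors (TAFs) and 18 genes whose symbols begin with GTF2. They were chosen by symbol stem alone, without any measured value, among genes annotated as protein-coding, and 44 of 154 genes with a matching symbol were left out because they were not. POLR2J3 entered under 2 Ensembl identifiers, so the 110 genes carry 109 symbols. Not every member is a subunit of a complex that starts transcription. TAF15 is an RNA-binding protein, the GTF2I family are DNA-binding proteins, and the numbered TAF11 copies, TAF1L and TAF7L are copies of TAF genes.

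Pol II transcribes protein-coding genes, and Pol III makes transfer RNA, a small ribosomal RNA and other small RNAs. At a Pol II promoter, TFIID (TBP with its TAFs) recognises the promoter, TFIIA, TFIIB, TFIIE, TFIIF and TFIIH assemble with the polymerase, and Mediator carries signals from bound activators to this assembly. Mediator has a head, a middle and a tail module and a detachable kinase module, and several of its subunits, like several TAFs and kinases, exist as pairs of closely related genes.

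The cells were MEG-01, a human megakaryoblastic leukaemia line. Control cells carried the control vector pLKO.1 (3 libraries), and knockdown cells carried 1 short hairpin RNA, sh2-MELK, against MELK, a protein kinase (3 libraries). All 6 libraries were poly(A)-selected and carry the same batch label, F5, and the time from transduction to harvest is not given in the sources used here. A single hairpin in a single line was tested, against a vector control. The labels call the libraries of a group biological replicates but do not say whether these were separate transductions, so p-values here speak only of the variation among these 6 libraries. In bulk RNA, fewer cells of a type and less RNA per cell cannot be told apart.

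The libraries held 18945176 to 21711313 counts, and their log levels over genes averaging 500 counts or more correlated at 0.994 to 0.996 within groups and 0.890 to 0.907 between groups (Pearson's r across genes, which are not independent replicates). MELK was at 219, 206 and 238 counts in the control libraries and at 16, 124 and 26 in the knockdown libraries. The edgeR log2 fold change of MELK was -1.98 ± 0.69 (SE; adjusted p = 0.104), and without knockdown replicate 2 it was -3.32 (adjusted p = 0.00271). In 35797 genes (57.9%) every value was 0, 1, 2, 10 or 100, each in about equal shares (19.8% to 20.4%), as if 1 of these numbers had been added to each read count. With that number modelled, the log2 fold change of MELK was -3.38 (95% interval -3.86 to -2.96). An added number has a standard deviation of 38.9 counts, so values near or below 100 counts say little, and the members are sorted by their mean count: 41 are deep (500 counts or more), 38 are of middle depth (100 to 500) and 31 are thin, 14 of the thin ones holding only those 5 values. Of the megakaryoblast markers, 2 of 8 rose and 6 fell, and their summed level was 3432 to 3544 CPM (counts scaled to a common library size) in control and 2699 to 2796 in knockdown libraries. ITGA2B weighed most in this sum and fell from a mean of 2024 to 1061 CPM, while TAL1 rose from 568 to 1041 CPM. Of the 8 markers 7 are deep, and of all deep genes 32.5% rose and 35.5% fell. The 5 stromal markers summed to 2.25 to 10.4 CPM in control and 6.31 to 16.3 CPM in knockdown libraries, and the 4 lymphocyte markers to 1.42 to 7.16 and 0.795 to 5.47 CPM. None of these 9 was past edgeR's threshold (1 at an unadjusted p under 0.05, 1 by DESeq2, 4 with the added number modelled), and their part in the results below was not tested.

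Most of the deep members moved little when MELK was knocked down. Of the 93 members that edgeR could test, 16 rose, 11 fell and 66 did not pass an adjusted p of 0.05, and the other 17 were too low to test. Among all 28303 genes tested, 8.12% rose and 8.43% fell (16.5% in either direction). The median log2 fold change was 0.01 over the members and 0.02 over all genes tested. Deep genes pass the test more often, so the deep members are set against deep genes: of the 41 members, 10 rose, 8 fell and 23 did not pass, which is 43.9% called, against 68% of the 5038 deep genes in the table (32.5% higher and 35.5% lower). Their log2 fold changes ran from -0.52 to 0.74, with a median size of 0.20 against 0.35 over all deep genes, and 35 of the 41 lay within 0.5 of zero, as did 3270 of the 5038. Groups did not overlap for 16 members that were higher and 12 that were lower in the knockdown, 28 of 41, while 79.2% of all deep genes had groups that did not overlap. An edgeR fit of the deep genes alone called more: 17 of the 41 members were higher and 9 lower, against 38.1% and 38.9% of the 5038.

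The called genes of each complex are given as counts, without a test of any difference between complexes. Among deep members, 5 of 14 Mediator genes were called (35.7%), 4 of 11 Pol II genes (36.4%), 2 of 6 Pol III genes (33.3%), 5 of 8 TAF genes (62.5%) and both GTF2 genes, against 68% of all deep genes. The counts by complex further below cover members of any depth and stand beside the 8.12% higher and 8.43% lower of all genes tested. In the plot of log2 fold changes by complex, each complex except GTF2 has members near zero, and all but Pol III have called members on both sides.

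**Figure D1:**
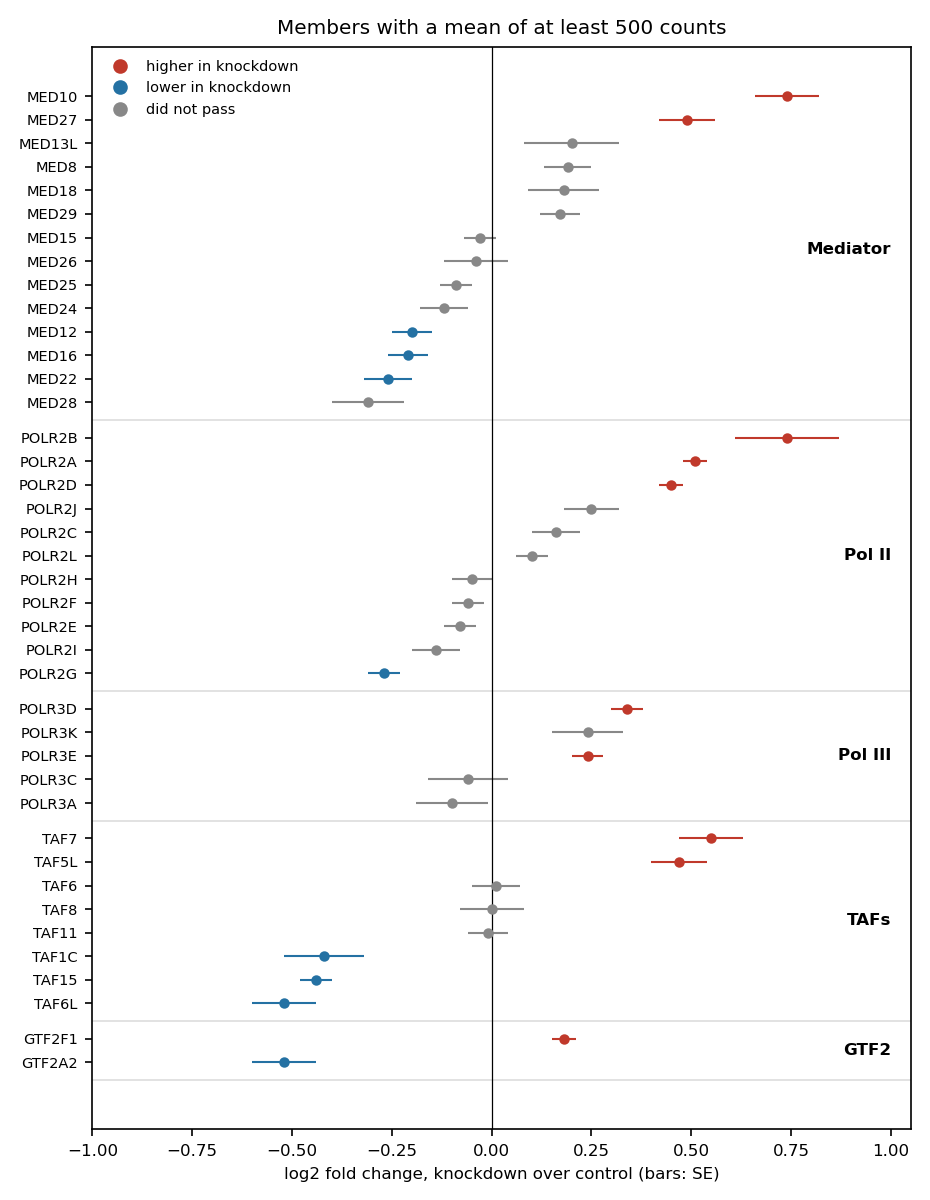
Log2 fold change (knockdown over control, edgeR, bars are SE) of 40 of the 41 deep members (mean count of 500 or more), grouped by complex; red points rose, blue points fell and grey points did not pass. Values run from -0.52 (TAF6L and GTF2A2) to 0.74 (MED10 and POLR2B), and 22 of 40 points are grey.

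Promoter sequences show what the start sites of these genes look like, and the 5 below belong to called genes that are described in turn: POLR2A, POLR2D and GTF2H1 rose, and GTF2A2 and GTF2IRD1 fell. Each is 300 bases, from 250 before to 50 after the start site in RefSeq (build GRCh38.p14, 5′ to 3′ on the gene's strand). RefSeq windows were found for 85 of the 109 member symbols. The windows lie at chr17:7484116-7484415 on the plus strand (POLR2A), chr2:127858106-127858405 on the minus strand (POLR2D), chr11:18322317-18322616 on the plus strand (GTF2H1), chr15:59657466-59657765 on the minus strand (GTF2A2) and chr7:74453656-74453955 on the plus strand (GTF2IRD1). They were picked after their values and words were seen. Capitals mark any of 6 words found on either strand. The ETS word is CCGGAAG, the E-box word is CACGTG, the YY1 word is AAGATGGCG, the GC box is GGGCGG, the CCAAT box is CCAAT and the TATA box is TATAAA. Overlapping hits were both counted.
POLR2A: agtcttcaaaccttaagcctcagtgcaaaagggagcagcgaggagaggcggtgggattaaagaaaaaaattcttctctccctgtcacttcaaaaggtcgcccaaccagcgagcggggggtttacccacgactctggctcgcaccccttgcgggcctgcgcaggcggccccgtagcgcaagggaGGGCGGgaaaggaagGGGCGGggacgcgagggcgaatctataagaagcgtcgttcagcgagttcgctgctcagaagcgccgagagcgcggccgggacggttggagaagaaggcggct
POLR2D: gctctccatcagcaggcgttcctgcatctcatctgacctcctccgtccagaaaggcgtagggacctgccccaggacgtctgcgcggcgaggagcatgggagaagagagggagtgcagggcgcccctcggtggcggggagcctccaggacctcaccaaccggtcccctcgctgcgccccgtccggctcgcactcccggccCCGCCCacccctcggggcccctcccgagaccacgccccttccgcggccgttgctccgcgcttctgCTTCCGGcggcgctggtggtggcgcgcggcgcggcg
GTF2H1: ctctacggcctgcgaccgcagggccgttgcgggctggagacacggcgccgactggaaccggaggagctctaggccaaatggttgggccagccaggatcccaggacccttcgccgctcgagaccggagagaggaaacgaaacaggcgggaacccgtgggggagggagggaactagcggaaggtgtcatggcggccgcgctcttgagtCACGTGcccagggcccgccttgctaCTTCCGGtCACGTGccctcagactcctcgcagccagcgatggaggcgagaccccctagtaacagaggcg
GTF2A2: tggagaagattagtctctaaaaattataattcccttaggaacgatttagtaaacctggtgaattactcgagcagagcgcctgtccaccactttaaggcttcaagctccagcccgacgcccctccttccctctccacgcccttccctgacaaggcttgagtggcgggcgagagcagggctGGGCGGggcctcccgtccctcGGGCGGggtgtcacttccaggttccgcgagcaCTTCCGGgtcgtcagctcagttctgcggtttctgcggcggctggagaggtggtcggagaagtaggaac
GTF2IRD1: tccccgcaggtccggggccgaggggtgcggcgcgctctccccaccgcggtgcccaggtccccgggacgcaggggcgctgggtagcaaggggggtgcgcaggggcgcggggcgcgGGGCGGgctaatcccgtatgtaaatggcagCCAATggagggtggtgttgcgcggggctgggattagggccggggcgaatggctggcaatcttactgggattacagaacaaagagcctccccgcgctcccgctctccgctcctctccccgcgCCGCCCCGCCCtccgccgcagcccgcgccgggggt

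The ETS word, read on the opposite strand, began 19 bases before the start site in GTF2H1, which rose, and 18 bases before it in GTF2A2, which fell, and in POLR2D it began 14 bases past the start site. GTF2H1 also held 2 E-box words, and each window except that of GTF2H1 held GC boxes. Among the 59 members that have a window and are not thin, 39% held the ETS word, against 21% of 7242 protein-coding genes at that depth and 10.7% of all 27305 windows. The E-box word was in 18.6% of these members (10.8% and 7.43% in the other sets) and the YY1 word in 10.2% (4.74% and 1.85%). The GC box was in 62.7% of members (73.3% and 44.6%), CCAAT in 27.1% (37.6% and 35.7%) and TATAAA in 5.08% (4.96% and 12%). Of the called members with a window, 12 rose and 7 fell. The ETS word was in 3 that rose and 3 that fell, the E-box word in 3 and 1, and the GC box in 7 and 6. CCAAT was in 1 that rose and 4 that fell, and the YY1 word and TATAAA were each in none that rose and 1 that fell, counts too small to set the groups apart without a test. A match is a description of letters and no evidence of binding.

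Pol II has 12 subunits, of which POLR2A and POLR2B form the active centre, and both rose. POLR2A, the largest subunit, carries the C-terminal tail that is phosphorylated through the transcription cycle. It was at 832, 797 and 814 CPM in the control libraries and at 1178, 1187 and 1107 CPM in the knockdown libraries. No control library reached the lowest knockdown library, and the log2 fold change was 0.51 ± 0.03 (SE, n = 3 per group; edgeR adjusted p = 1.57e-05). POLR2B was at 22.9, 28.9 and 19.8 CPM in control and at 38.7, 40.05 and 40.3 CPM in knockdown libraries. Its 3 knockdown values lay close together above a wider control group, with a log2 fold change of 0.74 ± 0.13 (edgeR adjusted p = 0.00425).

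The stalk of Pol II, which binds the emerging RNA, is a pair of subunits that moved in opposite directions. POLR2D read 110, 113 and 112 CPM in control and 150, 153 and 155 CPM in knockdown libraries. Its partner POLR2G read 182, 175 and 186 CPM in control and 146, 155 and 148 CPM in knockdown libraries. Neither pair of groups overlapped: POLR2D rose (0.45 ± 0.03 on the log2 scale, edgeR adjusted p = 2.19e-05) and POLR2G fell (-0.27 ± 0.04, adjusted p = 0.00134). Each of these 4 calls held when any 1 library was left out. POLR2C, POLR2I and POLR2J, the remaining subunits found in Pol II alone, did not pass, at 0.16, -0.14 and 0.25. POLR2I shares 79.6% of its exon bases with genes on the other strand, TBCB among them, so its reads cannot be assigned with certainty.

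Of the 5 subunits that Pol II shares with Pol I and Pol III, 1 rose and 4 did not pass. POLR2K, a small zinc-binding subunit, was at 13.7, 20.5 and 18.6 CPM in control and at 27.5, 29.6 and 37.5 CPM in knockdown libraries. Its log2 fold change was 0.84 ± 0.17 (edgeR adjusted p = 0.00989), it was 1.08 with the added number modelled (95% interval 0.88 to 1.24), and without knockdown replicate 3 it was no longer called (adjusted p = 0.0549). POLR2E, POLR2F, POLR2H and POLR2L lay at -0.08, -0.06, -0.05 and 0.10. In all, 4 Pol II genes rose, 1 fell and 10 did not pass, and the 3 POLR2J copies among these 10 were thin. With library size alone as the scaling 7 Pol II genes rose, and with GC content and length trends removed 8 of 11 did.

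**Figure D2:**
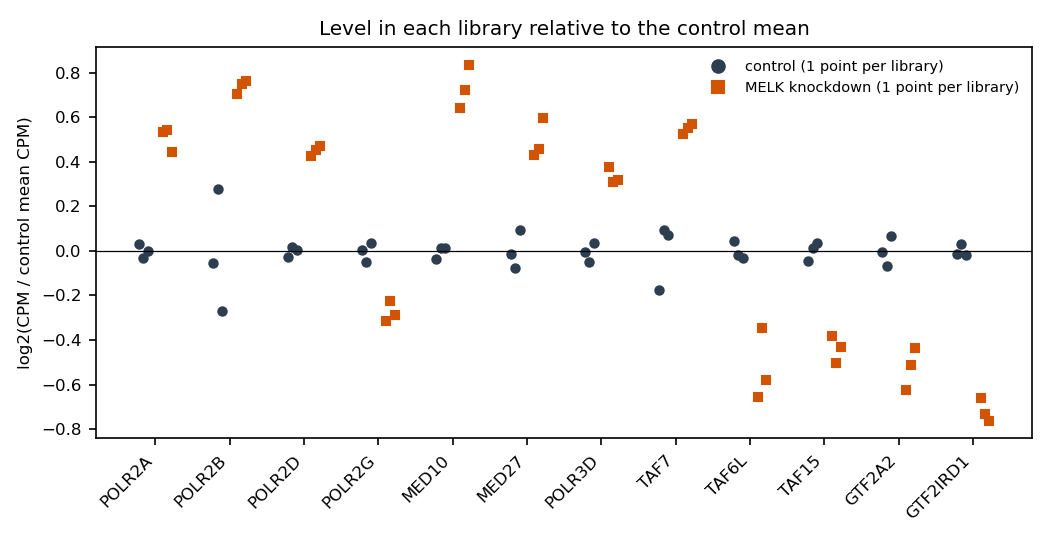
Level of 12 called members in each library, as log2 of CPM over the gene's control mean; circles are the 3 control and squares the 3 knockdown libraries. The squares lie above all circles for the genes that rose, such as POLR2A and MED10, and below all circles for those that fell, such as POLR2G and GTF2IRD1.

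Messages of subunits that sit once in the same enzyme were far from equal in level. Per kilobase of exon, the 12 Pol II subunits ran in control libraries from 4.04 ± 0.783 CPM per kb (POLR2B; SD, n = 3) to 113 ± 4.95 CPM per kb (POLR2L), a 28-fold span. POLR2A stood next to the top at 97.5 ± 2.13 and POLR2G at 94.0 ± 2.92 CPM per kb, so these neighbours differed by about the spread between libraries. In knockdown libraries POLR2A was the highest at 139 ± 5.23 CPM per kb, above POLR2L at 121 ± 3.69, while POLR2G was at 77.8 ± 2.43, and POLR2B remained the lowest at 6.73 ± 0.146 (a 20.7-fold span). The length used is the union of all annotated exons, which lowers the value of a gene with rarely used exons.

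**Figure D3:**
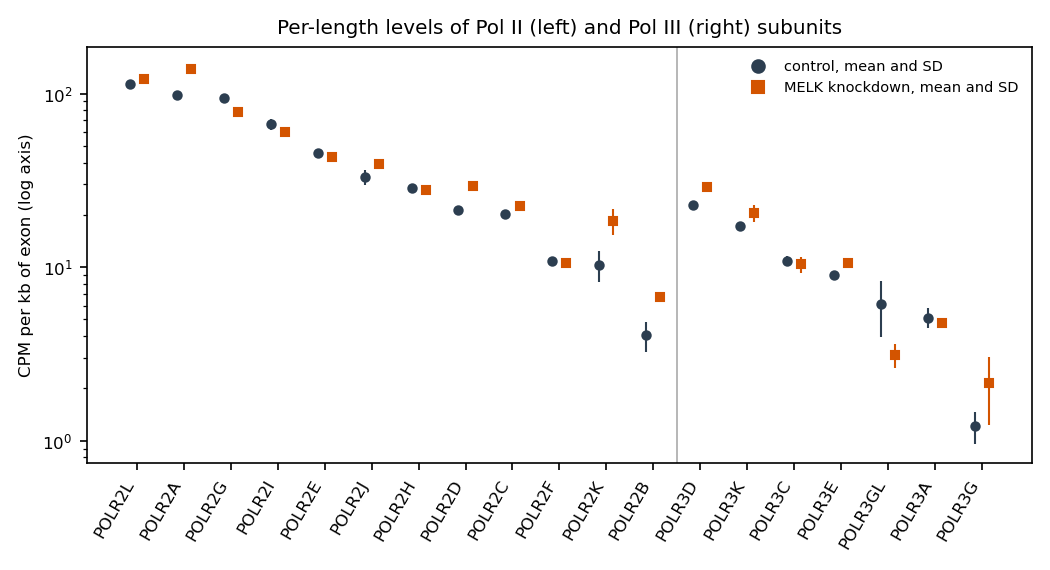
Level per kilobase of exon (log axis) of 12 Pol II subunits and of 7 Pol III subunits averaging over 100 counts; points are means and bars SD of 3 libraries. Pol II levels run from 4.04 (POLR2B) to 113 CPM per kb (POLR2L) in control libraries, and those of Pol III from 1.21 (POLR3G) to 22.9 (POLR3D).

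In Pol III, 2 of 10 genes rose, none fell by edgeR (1 at an unadjusted p under 0.05, 1 by DESeq2, 2 with the added number modelled) and 8 did not pass, and both that rose form the subcomplex that resembles TFIIF. POLR3D was at 129, 125 and 132 CPM in control and at 168, 160 and 161 CPM in knockdown libraries. POLR3E was at 84.3, 84.5 and 86.3 CPM in control and at 98.9, 102 and 102 CPM in knockdown libraries. Both genes had groups that did not overlap, with log2 fold changes of 0.34 ± 0.04 (edgeR adjusted p = 0.000289) and 0.24 ± 0.04 (adjusted p = 0.00141), and both were called without any 1 library. POLR3A, the largest subunit, did not pass (45.6 ± 5.93 CPM in control, 42.6 ± 1.59 in knockdown; -0.10 ± 0.09, adjusted p = 0.642). POLR3C and POLR3K were at -0.06 and 0.24 and did not pass.

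POLR3B, the other large subunit, was thinly read, and edgeR and the model of the added number gave it opposite signs. Its deposited counts were 50, 145 and 24 in control and 116, 33 and 115 in knockdown libraries, which do not separate the groups (edgeR log2 fold change 0.29 ± 0.85, adjusted p = 0.938). The model of the added number placed it at 36.7 reads in control and 18.7 in knockdown libraries, a log2 fold change of -0.98 (95% interval -1.48 to -0.46), so its direction turned with the method.

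POLR3G and POLR3GL are alternative subunits that occupy the same place in Pol III, and POLR3G is known as the form of stem and cancer cells. POLR3G was at 5.78, 3.74 and 5.12 CPM in control and at 6.44, 6.51 and 12.8 CPM in knockdown libraries. POLR3GL was at 6.56, 12.9 and 13.8 CPM in control and at 5.02, 5.17 and 6.57 CPM in knockdown libraries. Their log2 ratio was -1.06 ± 0.78 (SD, n = 3) in control and 0.52 ± 0.34 in knockdown libraries. That is a difference of 1.57, with every knockdown library above every control library (two-sided exact permutation p = 0.1, the smallest that 3 against 3 allows, and 0.125 after Benjamini-Hochberg adjustment over 5 pairs). Neither gene alone passed edgeR's test (0.81 ± 0.38, adjusted p = 0.247, and -0.99 ± 0.32, adjusted p = 0.0822), although without control replicate 1 POLR3GL did (-1.25, adjusted p = 0.0116). With the added number modelled the changes were smaller, at 0.53 (95% interval 0.28 to 0.78) and -0.49 (-0.74 to -0.26).

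In Mediator, 5 of 30 genes rose, 3 fell and 22 did not pass, and 3 of the 5 that rose were in the middle module, which lies between the head and the tail. MED10 was at 19.4, 20.1 and 20.1 CPM in control and at 31.0, 32.8 and 35.5 CPM in knockdown libraries. The control values were nearly equal and all knockdown values stood above them (0.74 ± 0.08 on the log2 scale, edgeR adjusted p = 0.000236). MED4 was at 9.99, 10.9 and 8.73 CPM in control and at 16.6, 15.6 and 17.0 CPM in knockdown libraries. It rose by 0.73 ± 0.14 (adjusted p = 0.00617; 0.76 with the added number modelled, 95% interval 0.58 to 0.94). MED21 was at 9.85, 5.87 and 6.10 CPM in control and at 13.6, 20.8 and 13.9 CPM in knockdown libraries. Its log2 fold change was 1.15 ± 0.26 (adjusted p = 0.0184; 1.40 modelled, 1.18 to 1.62). The other middle genes, MED1, MED7, MED9 and MED31, were at 0.11, -0.02, 0.18 and 0.41 and did not pass.

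MED27 and the head subunit MED6 also rose. MED27 was at 35.0, 33.5 and 37.7 CPM in control and at 47.6, 48.6 and 53.5 CPM in knockdown libraries (0.49 ± 0.07, edgeR adjusted p = 0.0014). MED6 was at 13.7, 11.9 and 12.1 CPM in control and at 17.0, 20.8 and 23.8 CPM in knockdown libraries (0.71 ± 0.15, edgeR adjusted p = 0.0127; 0.60 modelled, 0.34 to 0.78). The 3 genes that fell came from 3 modules and changed little. MED22 of the head fell by 0.26 on the log2 scale (59.4, 52.8 and 54.0 CPM in control, 47.4, 44.97 and 46.6 in knockdown libraries; edgeR adjusted p = 0.0187). MED16 of the tail fell by 0.21 (116, 110 and 105 CPM against 94.0, 92.5 and 98.6; adjusted p = 0.0166), and MED12 of the kinase module fell by 0.20 (166, 177 and 173 CPM against 148, 160 and 142; adjusted p = 0.0274). MED14, the backbone that holds the modules together, did not pass (11.4 ± 2.71 CPM in control, 10.9 ± 2.82 in knockdown; -0.06 ± 0.24, adjusted p = 1). The 9 other deep genes did not pass, the farthest from zero being MED28 at -0.31 ± 0.09 (adjusted p = 0.0628).

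The small Mediator decreases changed with the scaling, with GC content and with single libraries. When trends with GC content and length were removed, MED16 turned to 0.12 (edgeR adjusted p = 0.0203) and MED12 was no longer called (-0.05, adjusted p = 0.256). With library size alone as the scaling, none of the 3 decreases was called and 8 genes rose. Without knockdown replicate 1 none of the 3 was called, and without any 1 of the other libraries only 1 was. The edgeR adjusted p without 1 library reached 0.0855 for MED22, 0.0836 for MED16 and 0.122 for MED12. The number that rose was 3 without knockdown replicate 2, knockdown replicate 3 or control replicate 2. In these fits, and also without control replicate 3, MED6 and MED21 were lost (edgeR adjusted p up to 0.0617 and 0.097).

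The kinase module joins MED12 and MED13, or their relatives MED12L and MED13L, to cyclin C and a kinase, CDK8 or CDK19. CDK8, which is no member, was at 5.73, 5.76 and 6.25 CPM in control and at 8.83, 8.75 and 13.6 CPM in knockdown libraries. CDK19 was at 12.4, 10.3 and 15.6 CPM in control and at 5.07, 3.18 and 4.88 CPM in knockdown libraries. Their log2 ratio went from -1.03 ± 0.23 (SD, n = 3) to 1.16 ± 0.36, a difference of 2.19 with no overlap (exact permutation p = 0.1; 0.125 over 5 pairs). CDK19 fell (-1.55 ± 0.27, edgeR adjusted p = 0.0047; -1.39 modelled, -1.64 to -1.14), CDK8 did not pass (0.81 ± 0.26, adjusted p = 0.0736; called higher when modelled, at 0.58, 95% interval 0.36 to 0.82), and CCNC, which encodes cyclin C, rose (1.18 ± 0.10, adjusted p = 7.85e-05). MED13, which tethers the kinase module to the core, was at 12.7 ± 2.14 CPM in control and 17.6 ± 1.94 in knockdown libraries (0.47 ± 0.16, adjusted p = 0.0993; 0.68 modelled, 0.26 to 0.86). Its relative MED13L was at 27.2 ± 3.99 and 31.2 ± 2.41 CPM (0.20 ± 0.12, adjusted p = 0.374). The log2 ratio of MED13 to MED13L was -1.07 ± 0.10 in control and -0.81 ± 0.07 in knockdown libraries, a difference of 0.26 (exact permutation p = 0.1; 0.125 over 5 pairs). MED12L had a mean of 86.0 counts, so no ratio to MED12 is given.

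Of the TFIID subunits, 1 of 15 tested rose, 1 fell and 13 did not pass. TAF7, which binds TAF1 and restrains its acetyltransferase activity, was at 30.2, 36.3 and 35.8 CPM in control and at 49.1, 49.99 and 50.7 CPM in knockdown libraries. The knockdown values were nearly equal and lay above all controls (0.55 ± 0.08, edgeR adjusted p = 0.00138). TAF3, which binds a methyl mark on histones at active promoters, was at 23.8, 23.6 and 23.7 CPM in control and at 18.2, 14.8 and 16.9 CPM in knockdown libraries. It fell (-0.51 ± 0.11, adjusted p = 0.011; -0.50 modelled, -0.84 to -0.34), and without control replicate 3 the adjusted p was 0.0518. TAF1, the largest TFIID subunit, was at 12.2 ± 3.04 CPM in control and 11.3 ± 2.26 in knockdown libraries and did not pass (-0.11 ± 0.23, adjusted p = 0.919). TBP, which the TAFs surround, did not pass either (29.2, 31.3 and 33.4 CPM in control and 37.5, 35.2 and 36.8 in knockdown libraries; 0.22 ± 0.07, adjusted p = 0.0838). TAF6, TAF8 and TAF11, the other deep TFIID genes, lay at 0.01 or closer to zero with standard errors of 0.05 to 0.08, but with GC and length trends removed TAF6 was called higher (0.25, edgeR adjusted p = 0.000305) and TAF11 lower (-0.29, adjusted p = 0.000283).

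TAF5L and TAF6L replace TAF5 and TAF6 in SAGA, a histone-modifying coactivator, and moved in opposite directions. TAF5L was at 27.3, 30.1 and 28.2 CPM in control and at 37.5, 41.3 and 39.3 CPM in knockdown libraries (0.47 ± 0.07, edgeR adjusted p = 0.00193). TAF6L was at 71.4, 68.4 and 67.8 CPM in control and at 44.0, 54.4 and 46.4 CPM in knockdown libraries (-0.52 ± 0.08, edgeR adjusted p = 0.00195). Neither gene's groups overlapped. When trends with GC content and length were removed, TAF5L was no longer called (0.14, edgeR adjusted p = 0.147) and TAF6L was at -0.20 (adjusted p = 0.0148). TAF6, the TFIID counterpart, was at 91.3, 89.2 and 82.9 CPM in control and at 89.4, 93.2 and 82.9 CPM in knockdown libraries, groups that overlapped. The log2 ratio of TAF6 to TAF6L went from 0.34 ± 0.05 to 0.87 ± 0.13, a difference of 0.53 (exact permutation p = 0.1; 0.125 over 5 pairs). TAF6 and TAF6L share 28.3% and 21.1% of their exon bases with genes on the other strand. For TAF4 and TAF4B the ratio did not separate the groups (0.61 ± 0.57 in control and 0.39 ± 0.49 in knockdown libraries, exact permutation p = 0.7; 0.7 over 5 pairs). TAF5 and TAF9B had means of 85.7 and 52.8 counts, and no ratio to TAF5L or TAF9 is given.

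TAF15, an RNA-binding protein, was at 118, 123 and 125 CPM in control and at 93.8, 86.2 and 90.5 CPM in knockdown libraries. It fell by 0.44 ± 0.04 on the log2 scale (edgeR adjusted p = 0.000177), and no library of one group reached the other. TAF1C, of the factor SL1 that recruits Pol I, was at 41.0, 41.6 and 41.4 CPM in control and at 28.3, 28.4 and 36.1 CPM in knockdown libraries. It fell by 0.42 ± 0.10 (adjusted p = 0.0221), but only 1 of the 6 leave-one-out fits called it, with an adjusted p of up to 0.105. Without control replicate 3, 2 TAF genes fell rather than 4. Among the copies of TAF genes, only TAF1L and TAF11L4 could be tested, and neither passed.

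Among the GTF2 genes, 3 of 15 tested rose, 3 fell and 9 did not pass. GTF2F1, the large subunit of TFIIF, which accompanies the polymerase to the promoter, was at 280, 293 and 278 CPM in control and at 315, 326 and 321 CPM in knockdown libraries. It rose by a small amount (0.18 ± 0.03, edgeR adjusted p = 0.00467). GTF2A2, the small subunit of TFIIA, was at 30.9, 29.5 and 32.4 CPM in control and at 20.1, 21.8 and 22.9 CPM in knockdown libraries. It fell (-0.52 ± 0.08, adjusted p = 0.00246), and the groups of both genes did not overlap. GTF2A1, which encodes the other part of TFIIA, did not pass (-0.47 ± 0.30, adjusted p = 0.406; -0.71 modelled, -0.94 to -0.48). GTF2B, which encodes TFIIB, the bridge between TBP and the polymerase, was at 17.5 ± 2.42 CPM in control and 22.7 ± 1.95 in knockdown libraries (0.38 ± 0.13, adjusted p = 0.0963; 0.53 modelled, 0.28 to 0.70).

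In TFIIH, which opens promoter DNA and also serves in nucleotide excision repair, 2 of 5 tested GTF2H genes rose and none fell by edgeR, nor at an unadjusted p under 0.05 or by DESeq2. The model of the added number called GTF2H4 lower, but from only 3.61 reads in control libraries. GTF2H5, a small stabilising subunit, was at 6.07, 7.53 and 8.54 CPM in control and at 15.1, 22.7 and 16.3 CPM in knockdown libraries. Its log2 fold change of 1.29 ± 0.21 (edgeR adjusted p = 0.00274; 1.19 modelled, 1.00 to 1.40) was the largest edgeR value of any member past the threshold, whereas with the added number modelled MED21 was higher. It was also the only member called in a test for changes beyond 1.5-fold. GTF2H1 was at 13.5, 18.2 and 22.4 CPM in control and at 25.0, 33.1 and 30.9 CPM in knockdown libraries. Its groups did not overlap but were broad (0.72 ± 0.19, adjusted p = 0.0327; 0.74 modelled, 0.56 to 1.04), and it was called in only 1 of the 6 fits without a library (adjusted p up to 0.161). The helicase genes of TFIIH, which are not members, moved in opposite directions: ERCC2 fell (-0.48 ± 0.04) and ERCC3 rose (0.36 ± 0.05).

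GTF2I and GTF2IRD1 encode related DNA-binding proteins and lie side by side on chromosome 7 (74657667 to 74760692 and 74453790 to 74602604, GRCh38 in GENCODE coordinates). GTF2I was at 16.8, 18.2 and 16.8 CPM in control and at 10.2, 9.99 and 10.6 CPM in knockdown libraries. GTF2IRD1 was at 29.7, 30.7 and 29.6 CPM in control and at 19.0, 18.1 and 17.7 CPM in knockdown libraries. Both genes had tight groups far apart and nearly equal changes: -0.75 ± 0.12 (edgeR adjusted p = 0.00257) for GTF2I and -0.72 ± 0.08 (adjusted p = 0.000217) for GTF2IRD1. With the added number modelled they were at -0.74 (95% interval -0.94 to -0.56) and -0.70 (-0.86 to -0.54). Both calls held without any 1 library. GTF2I has close copies elsewhere on the chromosome, and since the counting mode is not given in the sources used here, reads that they share cannot be assigned with certainty. The further family genes GTF2IRD2B and GTF2IRD2, which are close copies of each other, had means of 57.0 and 3.67 counts, too low to describe.

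Below 500 counts, edgeR called fewer members than the model of the added number did. Of the 38 members of middle depth, edgeR called 6 higher and 3 lower, while it called 13.1% higher and 12.3% lower (25.4% in all) of the 4324 genes of that depth. The model of the added number called 15 higher and 10 lower, and 34% and 30.7% of all genes of that depth. It gives every gene the same variation between replicates, taken from the deep genes, so its intervals are too narrow where a gene varies more. All 27 edgeR calls among the members had the same direction and were called under the model. Members called by the model and not by edgeR included GTF2E1 (0.95, 95% interval 0.76 to 1.14), MED13 (0.68), TAF1 (-0.40, -0.60 to -0.18) and MED11 (-0.86, -1.12 to -0.28), GTF2E1 and MED11 being named after their values were seen. Over the 88 members with at least 10 reads at the lower bound in both groups, 31 were higher and 20 lower under the model. Of the 31 thin members, edgeR called none, also at an unadjusted p under 0.05 and by DESeq2, and 22 had fewer reads than that. Of the others, the model called POLR3F and 1 of the 2 POLR2J3 identifiers higher and POLR3B lower, named after their values were seen.

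**Figure D4:**
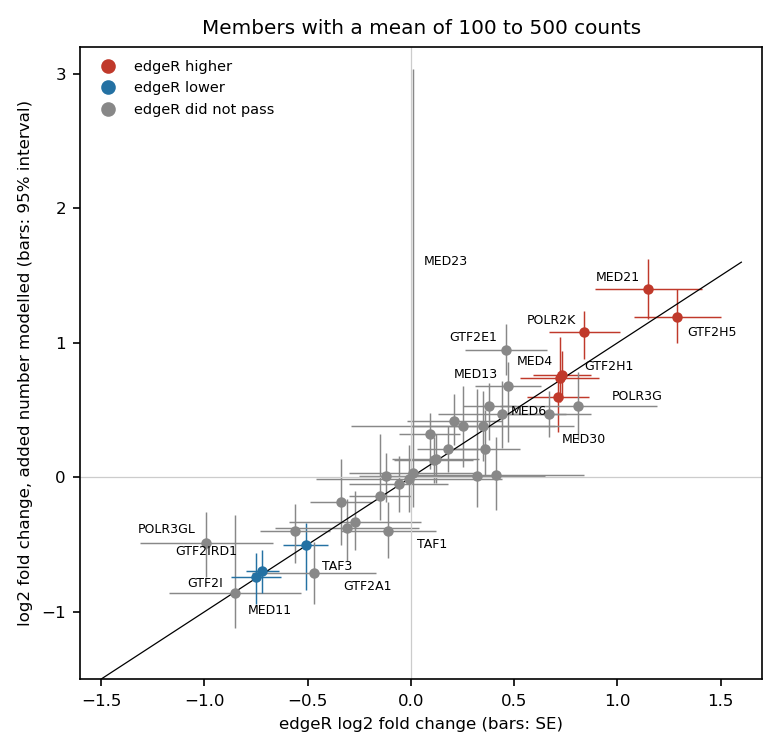
Log2 fold changes of the 38 members of middle depth (100 to 500 counts), by edgeR (x axis, bars are SE) and with the added number modelled (y axis, bars are 95% intervals), with the line of equality. Points called by edgeR lie near the line, whereas POLR3GL (-0.99 and -0.49) and GTF2E1 (0.46 and 0.95) lie away from it, and the interval of MED23 (-0.22 to 3.04) is the widest.

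GC content moved with the fold change, in the members as in all genes. The longest transcripts of the 16 members that rose had a median GC content of 42.9% (35.2% to 58.4%) and those of the 11 that fell 54.7% (39.3% to 64.8%). Over all genes averaging 100 counts or more, those that rose had a median of 47.3% and those that fell 56.1%. Spearman's rho between log2 fold change and GC content was -0.36 over the 41 members and -0.386 over 5031 genes, which share the same 6 libraries. When trends with GC content and length were removed, 14 of the 18 calls among the 41 members kept their direction and their call. Of the 4 others, MED12, TAF5L and TAF1C (-0.11, edgeR adjusted p = 0.312) were no longer called, and MED16 turned. Of the 14, 8 moved by over 1.5 times: POLR2B (to 0.42), POLR2D (0.26), TAF7 (0.28), TAF6L and MED22 (-0.16) came closer to zero, and POLR3E (0.46), GTF2F1 (0.38) and GTF2A2 (-0.91) went farther from it. A further 12 members were newly called, 10 higher and 2 lower. That fit called 20 of the 41 members higher and 7 lower, against 40.4% and 36.3% of the 5031 deep genes in it. POLR2A was at 0.70 in that fit.

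**Figure D5:**
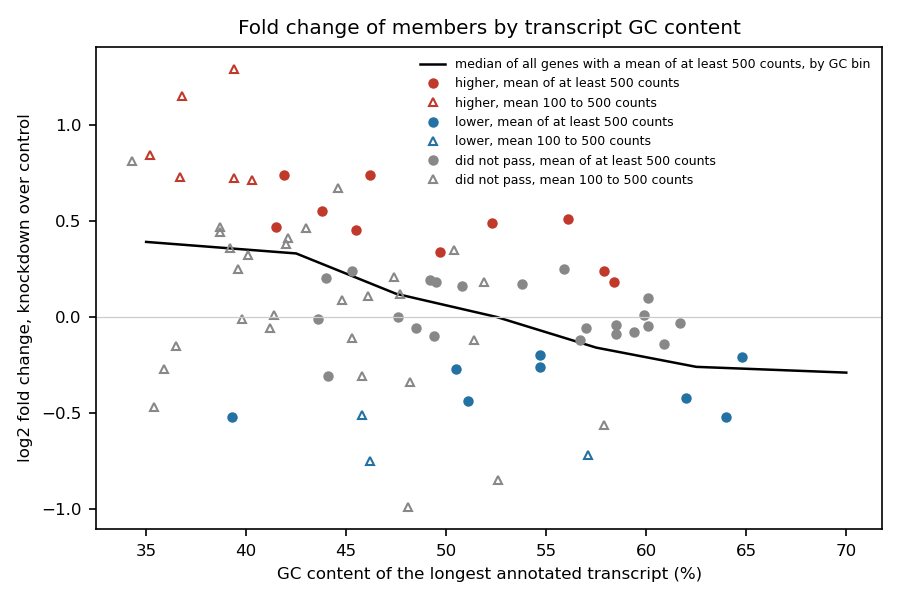
Log2 fold change (knockdown over control) of 78 members averaging 100 counts or more, by GC content of the longest annotated transcript; the line is the median of all deep genes in GC bins. The line falls from 0.39 in the lowest bin to -0.29 in the highest, and GTF2A2 (39.3% GC, -0.52) and POLR2A (56.1% GC, 0.51) lie away from it on opposite sides.

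Other genes of the same pathways were read from a list of 59, of which 58 could be tested: 12 rose, 12 fell and 34 did not pass. Of the 37 deep genes among them 59.5% were called, against 68% of all deep genes. With GC and length trends removed, 17 of their 22 calls held, 10 of these moving by over 1.5 times, and 5 were lost. Pol I, which makes ribosomal RNA, had 3 of 6 listed subunits lower by edgeR and none higher, also at an unadjusted p under 0.05 and by DESeq2, the largest change being POLR1G (69.5, 64.2 and 67.8 CPM in control, 31.4, 34.7 and 29.04 CPM in knockdown libraries; -1.08 ± 0.07). POLR1C, which Pol I and Pol III share, also fell (-0.33 ± 0.05). The 3 lower Pol I subunits were among its 5 deep ones, and 35.5% of all deep genes were lower. With GC and length trends removed, 4 of these 5 were lower and POLR1A was higher (0.11, edgeR adjusted p = 0.00615). Of the Pol III factors 3 of 18 rose and 3 fell: GTF3C3 (1.39 ± 0.13), GTF3C6 and GTF3C1 rose, and GTF3C2, SNAPC2 and MAF1, the Pol III repressor, fell (MAF1 -0.32 ± 0.04, edgeR adjusted p = 0.000891). MAF1 and SNAPC2 were no longer called with GC and length trends removed (-0.02 and 0.07, adjusted p = 0.515 and 0.191). Among factors of Pol II assembly, GPN1, which helps to import the enzyme into the nucleus, rose (0.72 ± 0.09) and RPAP1 fell (-0.94 ± 0.05). Of the pausing and elongation factors 4 of 14 tested rose and 2 fell, with HEXIM1 and SUPT6H higher and NELFA and NELFE lower, of which NELFA was no longer called with those trends removed (-0.08, adjusted p = 0.213).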

How the data were processed

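Poly(A) RNA-seq of 6 libraries was deposited by the authors as whole-number counts per gene. Per the submitters' processing notes the tools included STAR, HTSeq, fastp, FastQC, R 4.3.3 and DESeq2, with GRCh38 as the build; the sources used here do not name the annotation, strand setting or counting mode, and 18 members share over 20% of their exon bases with another gene. Groups and replicate numbers come from the sample titles. The members, gene lists and tests were chosen with earlier results of these data known. Counts were tested with edgeR 4.0.16 (R 4.3.3; TMM scaling, filterByExpr by group, robust quasi-likelihood F-test, Benjamini-Hochberg over all 28303 genes, threshold 0.05); SE is the fold change over the square root of F. CPM are TMM-scaled. Deposited values of 0, 1, 2, 10 or 100 fill 57.9% of genes. Reads plus such a number (mean 22.6) were therefore also fitted by a negative binomial likelihood, giving 95% profile intervals. That fit used 1 dispersion (a measure of variation between replicates) of 0.00293 for every gene, taken from the deep genes. Its intervals and calls therefore leave out variation particular to a gene. Requiring 10 reads was decided after the values were seen. Ratios add 0.5 CPM. Symbols for the table's Ensembl identifiers, lengths and GC content come from GENCODE and promoters from RefSeq GRCh38.p14. Named genes were MELK, fixed core subunits, paralogue pairs, and per complex up to 3 largest increases and 3 largest decreases past the threshold among deep genes; lower genes were named where a count of 5 or fewer singled them out, with the model beside them. 1 member is counted in the totals but its own result is not reported here. The main edgeR fit, that of deep genes, the GC and length fit, DESeq2, limma-voom and the model were also checked on data with known changes. The ratio test and the other fits were not. Those data were drawn under the model's own assumptions, so the check could not test these assumptions. In it, DESeq2 called many more unchanged genes than the other fits did. The main edgeR fit and limma-voom missed many of the smallest changes. Alternatives were other scalings, filters, DESeq2 1.42.0, limma-voom 3.58.1, a replicate block, a 1.5-fold test, the model, GC and length trends removed, and each library left out. Replicate pairs differed by 4.28 to 10.53 times the sampling noise (chi-square per degree of freedom), and by 15.1 to 115.0 times over the 115 genes averaging 20000 counts or more, where an added number of at most 100 is small, so none was counted as 1 sample.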

Additional observations from a re-analysis of the deposited data

How the results depend on the processing

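The direction and call of the 27 called members held in all under RLE scaling, upper quartile scaling, the 5 CPM filter, DESeq2, the non-robust fit and the model of the added number, and for 18 in every fit that left out 1 library. A test for changes beyond 1.5-fold kept 525 higher and 655 lower genes of 2297 and 2386, 1 member higher and 0 lower, with 0 higher in Mediator, Pol II, Pol III and TAFs, 1 in GTF2, and 0 lower in each. The model called 4450 genes higher and 4511 lower; 32 members higher and 21 lower, 1 each with too few reads; Mediator 10 and 5, Pol III 5 and 2, TAFs 8 lower, GTF2 8 and 5; and POLR3B at -0.98. Library size scaling gave 7 members lower, 8 higher and 0 lower in Mediator, 7 higher in Pol II and 4 higher in Pol III. It called 56.6% of called genes higher, against 49.0%, and moved the median log2 fold change of all deep genes by 0.07. No filter gave 8 Mediator genes higher. The 5 CPM filter gave 25 members higher, 9 of Mediator and 4 of Pol III, and 1 Pol III gene lower. DESeq2 gave 9 Mediator genes higher and 1 Pol III gene lower. Testing deep genes only gave 4 Pol III genes higher and, with fewer genes tested, 1 GTF2 gene each way. Removing GC and length trends, with or without the replicate block, gave 7 members lower, 8 Pol II genes higher, 1 GTF2 gene each way, and MED16 at 0.12. Leaving out each library gave 1755 to 2051 genes higher and 1945 to 2053 lower, 12 to 17 members higher and 7 to 10 lower, Mediator 3 to 6 and 0 to 2, Pol II 3 to 5 and 1, Pol III 2 to 3 and 0 to 1, TAFs 2 and 2 to 4, GTF2 2 to 3 and 3; the ratio of TAF4 to TAF4B ran from -0.48 to 0.08. With each group's mean subtracted, the log levels of same-numbered libraries over deep genes correlated at 0.0998, -0.0124 and -0.0801. The numbers were therefore not taken as pairs. With the replicate block 17 members rose and 10 fell (2062 and 2120 genes), and MED16 alone was lost (edgeR adjusted p = 0.0525). The causes of these shifts were not tested. Near 100 counts, the standard deviation of the 5 recurring values (38.9 counts) is larger than counting error.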

Other observations

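GTF2IRD1 and GTF2I, which fell together, are 55063 bases apart on chromosome 7. Within 500 kb on either side, a region chosen after the values were seen, the 7 other protein-coding genes averaging over 100 counts did not all follow them. CLIP2, next to GTF2IRD1, fell (-0.37 ± 0.05, edgeR adjusted p = 0.00135) and so did LAT2 (-0.25 ± 0.04, adjusted p = 0.00213). LIMK1 (-0.01 ± 0.05) and RFC2 (0.11 ± 0.04) did not pass. EIF4H (0.24 ± 0.05, adjusted p = 0.00976), RCC1L (0.20 ± 0.04, adjusted p = 0.00493) and CASTOR2 (0.69 ± 0.16, adjusted p = 0.0192) rose.

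The promoter windows of members that are not thin had a median GC content of 61.3%, against 66.0% over protein-coding genes at that depth. It was 64.5% over the 12 windows of members that rose and 59.0% over the 7 of members that fell, the opposite order to that of their transcripts. Both are descriptions without a test.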
